A study of Mus musculus with 4 samples.

Results

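The 10 genes described here encode Polycomb repressive complex 2 (PRC2) and its accessory subunits: Ezh1, Ezh2, Eed, Suz12, Rbbp4, Rbbp7, Mtf2, Phf19, Jarid2 and Aebp2. They were chosen by name, from the known make-up of the complex, and all 10 were found among the 46078 gene rows of the count tables. Wild-type mouse embryonic stem (ES) cells, grown in 2i, were sorted by forward and side scatter into a small gate, which takes cells that have just left mitosis or are in G1, or were collected ungated as the control. The sorted cells were kept for 6 h on laminin in either 2i or N2B27 and then profiled singly by Smart-seq2, which sequences full-length cDNA without molecular identifiers. In the study's culture 2i is the basal medium N2B27 with inhibitors of MEK and GSK3 and, by its methods, leukemia inhibitory factor (LIF), which together hold ES cells in the naive state, and N2B27 alone lets them leave it. The groups, named by medium and gate, were therefore 2i small and 2i ungated, and N2B27 small and N2B27 ungated, 4 in all with 24 cells each, and all cells shared their genotype and their culture in 2i before the sort. A group is 1 sample, since cells are not replicates of it, so no test between groups was possible and the values below compare these samples only.

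PRC2 methylates histone H3 to give H3K27me3, a mark of silenced chromatin, and in ES cells it is best known for marking developmental regulators that are not expressed. Its core holds a methyltransferase, Ezh1 or Ezh2, together with Eed, Suz12 and a histone-binding subunit, Rbbp4 or Rbbp7. Accessory subunits divide it into the subtype PRC2.1, which carries a Polycomb-like protein such as Mtf2 or Phf19, and PRC2.2, which carries Jarid2 and Aebp2.

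After low-quality cells were left out, 12 cells of 2i small, 22 of 2i ungated, 20 of N2B27 small and 21 of N2B27 ungated remained, 75 of 96 in all. Counts on genes per kept cell ran from 1364155 to 4844170. The groups differed in ways that bear on every value below. ERCC spike-ins took a median of 3.47% and 2.45% of the counts in the small cells of 2i and N2B27 and 1.28% and 1.14% in the ungated cells. Small cells had counts of 7603 and 7463 genes at the median, and ungated cells of 9516 and 8200. Cells assigned to G1, S and G2/M numbered 6, 5 and 1 in 2i small, 0, 8 and 14 in 2i ungated, 6, 11 and 3 in N2B27 small, and 2, 4 and 15 in N2B27 ungated, and the scores of 12 of the 75 cells lay within 0.1 of the 0.5 limit. The 2 media were on separate plates and lanes and cannot be told apart from them. Likewise, small and ungated cells carried different index rows of a plate. The same 48 index pairs were used on both plates and none was repeated within a plate. A pair of 2i small cells stood apart. The first had 40.9% spike-ins, 4612 genes and a size factor of 0.133, so that each of its counts weighs heavily, and the second had 15712 genes and 0.0673% spike-ins. Where leaving out the first ended a call, turned a direction or moved a value by over 1.5 times, the value without it is given too. The ES cell markers Nanog, Zfp42 and Dppa5a had counts in 75 of 75 cells, Pou5f1 in 74, Esrrb in 68 and Sox2 in 57. Of the other cell types a culture could hold, the primitive endoderm markers Gata6, Sox17 and Gata4 were found in 2, 2 and 9 cells and Pdgfra in 0 of 75, and the fibroblast markers Col1a2 and Thy1 in 1 cell each and Col1a1 and Postn in 0 of 75, which allows a share of up to 4.0%.

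Transcripts of Eed, Mtf2, Rbbp4 and Rbbp7 were found in all 75 cells, Jarid2 in 70, Ezh2 in 67, Suz12 in 56, Aebp2 in 40, Ezh1 in 33 and Phf19 in 28. A cell held a median of 7 of the 10 in 2i small, 9 in 2i ungated, 7.5 in N2B27 small and 8 in N2B27 ungated. Levels are given as normalized counts, which are counts divided by a size factor of the cell. The difference between groups is given as the log2 ratio of their mean normalized counts after 1 is added to each mean. A gene is called past the fold where this ratio is at least 1 in size, and the 8730 genes with a mean normalized count of at least 20 over the groups serve as the background. All 10 PRC2 genes passed that filter. Phf19 was the member found in the fewest small cells, and its values come first for that reason. The other settings given for it use the same cells, so they describe the difference and are no separate support. Phf19 passed the filter through its ungated groups, with means of 32.7 in 2i and 110 in N2B27. Its small groups had means of 0.352 and 7.74, so the filter itself favoured a lower value in small cells.

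**Figure D1:**
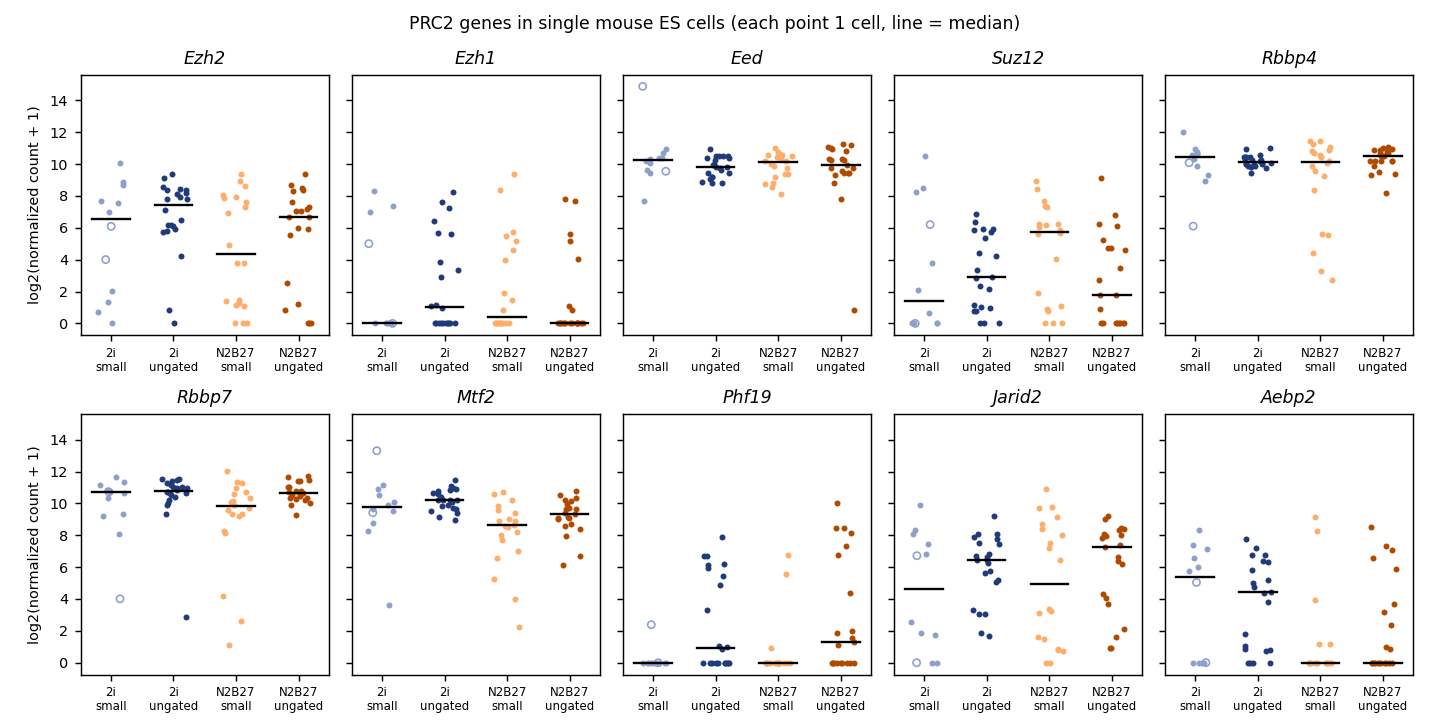
Each point is 1 kept cell, plotted by group on the horizontal axis against log2(normalized count + 1) on the vertical axis, with the median as a line, and open points are the 2i small cells with the highest spike-in share and with the most genes. Phf19 has counts in 1 of 12 small 2i cells and 3 of 20 small N2B27 cells, while Eed, Rbbp4, Rbbp7 and Mtf2 have counts in every cell.

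Phf19 (ENSMUSG00000026873, chromosome 2, 34893757 to 34914026, minus strand, mm10), a Polycomb-like subunit of PRC2.1, was found in 1 of 12 cells of 2i small, 12 of 22 of 2i ungated, 3 of 20 of N2B27 small and 12 of 21 of N2B27 ungated. The shares were 8.33% (exact binomial 95% interval 0.211 to 38.5), 54.5% (32.2 to 75.6), 15.0% (3.21 to 37.9) and 57.1% (34.0 to 78.2), and the intervals cover counting error only. So few small cells held Phf19 that the median was 0 in both small groups, against 0.888 in 2i ungated and 1.5 in N2B27 ungated, with highest cells at 4.22, 233, 107 and 1019 in the order 2i small, 2i ungated, N2B27 small, N2B27 ungated. Group means were 0.352, 32.7, 7.74 and 110 normalized counts. The sums of counts behind them were 11 (exact Poisson 95% interval 5 to 20), 746 (693 to 802), 148 (125 to 174) and 2611 (2512 to 2713). Small cells were lower by a log2 ratio of −3.66 in N2B27 and −4.64 in 2i, which is 12.7-fold and 24.9-fold on this scale.

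That difference had the same direction under each of the 13 alternatives tried in N2B27 (−4.21 to −2.26) and the 14 tried in 2i (−6.53 to −1.99). With each cell of at least 1500000 counts thinned to that depth, Phf19 was found in 9.09%, 40.0%, 10% and 52.4% of cells in the same order. Thinning evens the counts of cells but not the RNA captured from them, and a technical difference in detection was not tested. Within cells assigned to S the log2 ratio of small to ungated cells was −2.94 in N2B27 and −4.57 in 2i. None of the 6 G1 cells of 2i small held a count, nor did any of the 6 of N2B27 small, and 0 of 6 cells allows a share of up to 50%. Each index row showed the same direction, with means of 0.604 and 0 in the rows of 2i small against 22 and 43.4 in those of 2i ungated, and of 9.78 and 5.25 in N2B27 small against 135 and 82.3 in N2B27 ungated. Between media, N2B27 was higher by 1.72 in ungated cells and by 2.69 in small cells, the latter resting on 1 and 3 cells with a count. The 1 cell of 2i small with a count was the cell with the most genes. Without that cell the log2 ratio was −5.07 between the gates in 2i and 3.13 between the small groups. In N2B27 ungated 1 cell held 44.2% of the sum, while 54.5% and 57.1% of ungated cells in 2i and N2B27 held a count. The ratio in ungated cells ran from 0.38 to 2.30 under 13 alternatives.

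**Figure D2:**
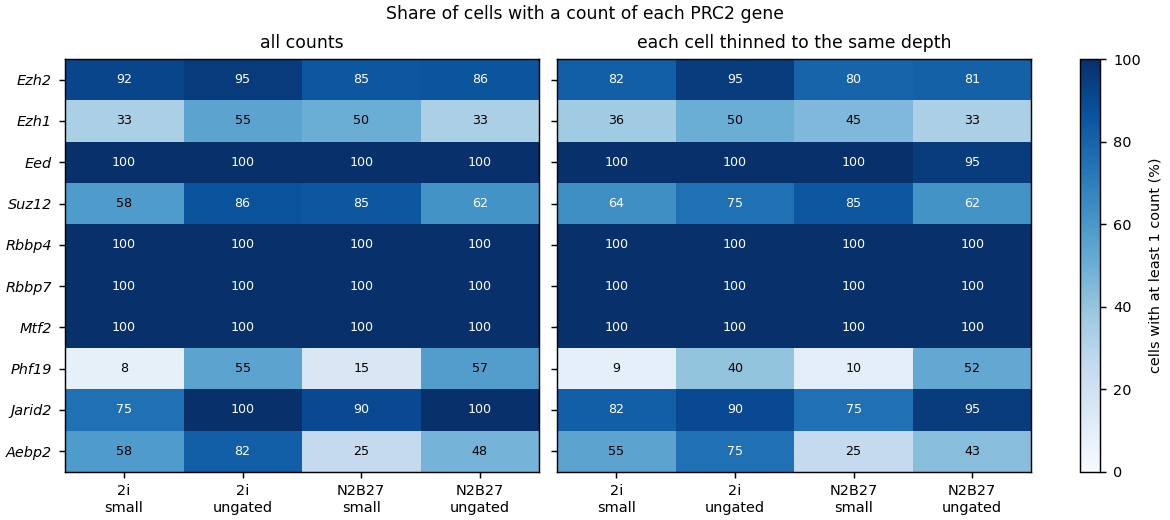
Share of kept cells with at least 1 count of each gene (percent, shade and number) for the 4 groups, from all counts on the left and after each cell was thinned to the same depth on the right. Phf19 is in 8.33% and 15.0% of small cells and in 54.5% and 57.1% of ungated cells. After thinning it is in 9.09% and 10% of small cells and in 40.0% and 52.4% of ungated cells.

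The promoters of Phf19, Ezh2 and Suz12 are shown because they were the members whose windows held the motif of E2F factors, which drive transcription around entry into S phase. The motif was searched as the 4 words TTTCCCGC, TTTGGCGC, TTTCGCGC and TTTGCCGC on both strands of the RefSeq promoter windows (GRCm38.p6), from 250 bases before to 50 after a start site, in which all 10 members had an entry (14 start sites). Capitals mark the match, the sequences run 5′ to 3′ on the strand of the gene, and the last 30 bases follow the start site. The places are chr2:34913947-34914226 (minus) for Phf19, chr6:47595001-47595280 (minus) for Ezh2 and chr11:79992856-79993135 (plus) for Suz12.
Phf19: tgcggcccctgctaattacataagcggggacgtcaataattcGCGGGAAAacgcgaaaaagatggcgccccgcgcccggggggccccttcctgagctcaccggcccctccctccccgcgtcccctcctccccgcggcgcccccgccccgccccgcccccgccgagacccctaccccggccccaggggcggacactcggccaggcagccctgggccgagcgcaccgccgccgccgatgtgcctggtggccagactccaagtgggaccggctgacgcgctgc
Ezh2: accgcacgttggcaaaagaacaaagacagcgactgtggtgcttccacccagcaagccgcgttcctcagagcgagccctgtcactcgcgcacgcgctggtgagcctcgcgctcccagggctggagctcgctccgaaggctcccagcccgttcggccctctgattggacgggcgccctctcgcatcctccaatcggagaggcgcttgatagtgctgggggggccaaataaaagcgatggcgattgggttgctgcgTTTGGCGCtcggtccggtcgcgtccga
Suz12: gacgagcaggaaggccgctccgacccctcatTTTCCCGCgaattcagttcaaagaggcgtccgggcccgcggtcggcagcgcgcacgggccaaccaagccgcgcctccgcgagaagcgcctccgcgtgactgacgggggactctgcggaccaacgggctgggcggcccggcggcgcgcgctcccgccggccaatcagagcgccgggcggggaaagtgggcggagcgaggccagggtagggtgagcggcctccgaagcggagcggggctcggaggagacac
The match begins 208 bases before the start site in Phf19, where it lies on the opposite strand, at base 4 after it in Ezh2, and 219 bases before it in Suz12. Of 32851 promoter windows in the table, 2.26% held a match. A match describes these letters only.

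Ezh2 (chromosome 6, 47530139 to 47595341, minus strand) and Ezh1 (chromosome 11, 101191115 to 101226463, minus strand) are the alternative methyltransferases, Ezh2 being the form of dividing cells. Ezh2 ranged from 0 to 1081 normalized counts with a median of 97.7 in 2i small, from 0 to 658 with a median of 179 in 2i ungated, from 0 to 675 with a median of 21 in N2B27 small and from 0 to 651 with a median of 103 in N2B27 ungated. The cells of the 4 groups overlapped over nearly the whole range. Group means were 214, 204, 142 and 154, so the means of small and ungated cells were close, with log2 ratios of −0.12 in N2B27 and 0.07 in 2i, while the medians were lower in small cells. Means of log2 values gave −0.89 and −1.33, S-phase cells −0.72 in each medium, and 2i with no cell left out −1.38. N2B27 was lower than 2i by −0.40 in ungated and −0.59 in small cells.

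Ezh1 was sparse. Its median was 0, 1.04, 0.407 and 0, its highest cells reached 318, 300, 658 and 221, and its means were 53.8, 39.1, 58.5 and 24.9 in the same order of groups. In N2B27 small cells the mean was 2.30-fold that of ungated cells (log2 1.20), but 1 cell held 56.2% of the sum of the small group, and the ratio turned to −2.48 within S-phase cells and to −0.49 with spike-in size factors. In 2i the ratio was 0.45. Per kilobase of exon, Ezh2 was above Ezh1 in 10 of 12, 21 of 22, 16 of 20 and 17 of 21 cells, and the mean of Ezh2 was 4.43, 5.81, 2.70 and 6.89 times that of Ezh1.

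Eed (chromosome 7, 89954654 to 89980983, minus strand), the subunit that reads H3K27me3 and stimulates the enzyme, was among the most abundant members. Its cells ran from 202 to 30091 normalized counts with a median of 1225 in 2i small, from 452 to 1965 with a median of 913 in 2i ungated, from 273 to 2091 with a median of 1118 in N2B27 small and from 0.771 to 2472 with a median of 1002 in N2B27 ungated. The groups overlapped apart from the 1 cell at the top of 2i small. That cell, the one rich in spike-ins, held 71.0% of the sum of its group. The log2 ratio of small to ungated cells in 2i was 1.84 with it and 0.18 without it, and that of N2B27 small to 2i small was −1.73 with it and −0.08 without it. In N2B27 small cells differed from ungated cells by −0.15.

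Suz12 (chromosome 11, 79993106 to 80034123, plus strand), the scaffold on which the core assembles, had low levels and a wide spread. Cells ran from 0 to 1425 with a median of 1.93 in 2i small, from 0 to 114 with a median of 6.47 in 2i ungated, from 0 to 479 with a median of 52.9 in N2B27 small and from 0 to 548 with a median of 2.47 in N2B27 ungated. Means were 182, 24.3, 90.5 and 44.5, and 1 cell held 65.4% of the sum in 2i small and 58.6% in N2B27 ungated. In N2B27 small cells were higher in the mean (log2 1.01), in the median and in the share of cells with a count (85.0% against 61.9%). That ratio was 0.36 with no cell left out, 0.44 with fixed limits on cells, 0.09 with spike-in size factors, 0.99 with thinned counts and 1.80 without the highest cells. In 2i small cells were higher in the mean (log2 2.85), while the median and the share of cells with a count (58.3% against 86.4%) were lower than in ungated cells. The 2i ratio was −0.95 within S-phase cells and 0.20 with means of log2 values. Per kilobase of exon Eed exceeded Suz12 in all but 1 of the 75 cells.

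Rbbp4 (chromosome 4, 129307100 to 129335370, minus strand) and Rbbp7 (chromosome X, 162760402 to 162779092, plus strand) are histone chaperones that other chromatin complexes also use. Rbbp4 had means of 1420, 1205, 1171 and 1361 and medians of 1387, 1131, 1100 and 1429, so the groups were near each other. The cells of N2B27 small spread from 5.65 to 2817, against 296 to 2169 in N2B27 ungated. The coefficient of variation was 0.713 and 0.810 in the small cells of 2i and N2B27 and 0.275 and 0.381 in the ungated cells. Rbbp7 gave a like picture, with coefficients of 0.653 and 0.913 in small and 0.423 and 0.424 in ungated cells. The 2i small coefficients include the spike-in-rich cell, at 67.8 for Rbbp4 and 15.1 for Rbbp7. Coefficients were not taken over all genes, so this spread is not set apart from that of other genes. Small cells were lower in Rbbp7 by −0.63 in N2B27 and −0.29 in 2i, with means of 1158 against 1793 and of 1468 against 1796. Rbbp7 has a near-identical processed pseudogene, Gm6382 (chromosome X, 142210884 to 142211825), which matches 42% of its longest transcript at 97.1% identity and took 49813 counts against 142271 for Rbbp7 over the kept cells. The median share of the pseudogene in the sum of both was 25.1%, 25.9%, 26.2% and 26.3% in the 4 groups, so how reads were split between them is uncertain, and the mean of the sum was 1912, 2429, 1572 and 2436.

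Mtf2 (chromosome 5, 108065674 to 108109004, plus strand) is the Polycomb-like subunit that recruits PRC2.1 to unmethylated CpG islands. Cells ran from 11.3 to 10118 with a median of 875 in 2i small, from 494 to 2825 with a median of 1182 in 2i ungated, from 3.76 to 1652 with a median of 390 in N2B27 small and from 68.5 to 1764 with a median of 644 in N2B27 ungated. N2B27 was the lower medium in both gates. The log2 ratio of N2B27 to 2i was −0.84 in ungated cells, with means of 729 and 1309, and −1.75 in small cells, or −0.91 without the cell rich in spike-ins. It stayed below 0 under each of the 13 alternatives tried for ungated cells (−1.05 to −0.36) and the 14 tried for small cells (−4.31 to −0.44). Small cells were lower than ungated cells in N2B27 (−0.50), and in 2i the ratio was 0.41 with the spike-in-rich cell and −0.43 without it. Per kilobase of exon Mtf2 exceeded Phf19 in all cells of the first 3 groups and in 19 of 21 cells of N2B27 ungated.

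Jarid2 (chromosome 13, 44729474 to 44921643, plus strand), which helps to bring PRC2.2 to chromatin, had means of 163, 122, 280 and 178 and medians of 54.5, 86.2, 48.1 and 155. The mean and the median therefore differed in direction between gates. Small cells were higher in the mean (0.41 in 2i and 0.65 in N2B27) and lower in the median, and the highest cell, at 1893 in N2B27 small, held 33.8% of the sum of its group. In N2B27 the ratio turned to −0.67 with no cell left out, −0.70 with fixed limits on cells, −0.62 with spike-in size factors and −0.99 with means of log2 values. In 2i it turned to −1.45 with means of log2 values, −1.73 in S-phase cells and −0.15 without the highest cells. N2B27 was above 2i in the mean by 0.54 in ungated and 0.78 in small cells. Aebp2 (chromosome 6, 140622663 to 140678472, plus strand), a zinc-finger partner of Jarid2, was found in 58.3%, 81.8%, 25% and 47.6% of cells, with means of 72.0, 43.1, 44.4 and 39.6. Its share was lower in small than in ungated cells in each medium and lower in N2B27 than in 2i in each gate, while its means followed the order of the media but not that of the gates, and 1 cell held 62.9% of the sum in N2B27 small.

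**Figure D3:**
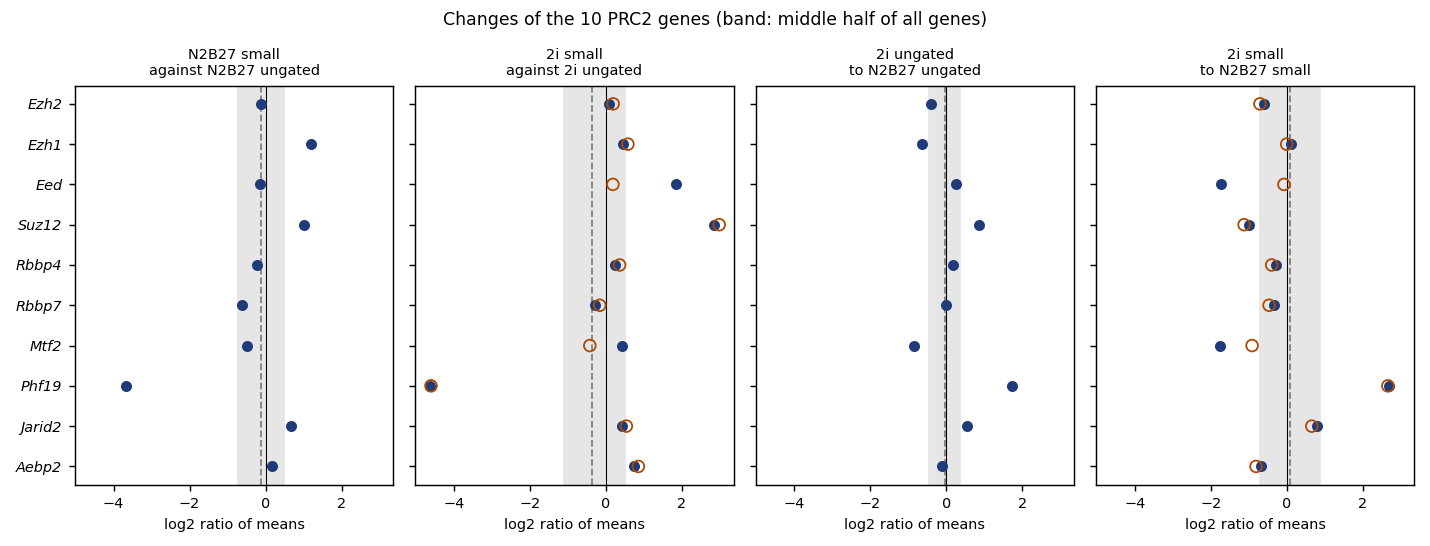
Log2 ratio of mean normalized counts of each member in the 4 comparisons (filled points), with the value without the spike-in-rich 2i small cell as an open circle, the median of all 8730 genes as a dashed line and their quartiles as a grey band. Phf19 lies at −3.66 and −4.64 in the comparisons of gates, far to the left of the band, and Eed in 2i moves from 1.84 to 0.18 when the 1 cell is left out.

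As a set, the members lay on both sides of 0 in each comparison. For N2B27 small against N2B27 ungated, Ezh1 and Suz12 were past the fold upward, 2 of 10, where 11.8% of all genes were, and Phf19 was past it downward, where 17.1% of all genes were. The members' median log2 ratio was −0.13, beside −0.12 over all genes. For 2i small against 2i ungated, Suz12 and Eed were past the fold upward against 16.3% of all genes, and Phf19 downward against 27.8%. The median was 0.41 beside −0.36 over all genes, and without the spike-in-rich cell it was 0.27 beside −0.30.

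From 2i ungated to N2B27 ungated, Phf19 was past the fold upward, where 7.49% of all genes were, and no member downward, where 9.92% were, with a median of 0.09 beside −0.03. From 2i small to N2B27 small, Phf19 was past the fold upward (22.3% of all genes) and Eed and Mtf2 downward (19.2%), with a median of −0.47 beside 0.09. Without the spike-in-rich cell neither Eed (−0.08) nor Mtf2 (−0.91) was past the fold downward, while Suz12 went from −0.998 to −1.12. These comparisons share groups with each other. Poscounts size factors, which use genes missing from some cells, moved the median of all genes up to 0.30, 0.26, 0.40 and 0.25 in the 4 comparisons, and the members past the fold became 4 higher and 1 lower, 7 and 1, 3 and 0, and 2 and 3. The shares of all genes rose as well on the higher side, to 24.6%, 32.4%, 17.5% and 30.4%, with 12.5%, 18.7%, 5.67% and 19.5% lower. Spike-in size factors, which keep differences in RNA per cell, put 9 of 10 members lower in N2B27 small than in N2B27 ungated, with a median of −0.88 beside −0.82 over all genes. In 2i the medians with these factors were 0.94 and 0.79, and without both cells that stood apart, a setting added after seeing the data, −1.09 and −1.25.

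Levels can be set side by side between genes per kilobase of exon. In 2i ungated the mean normalized count per kilobase was 618 for Rbbp7, 258 for Eed, 230 for Mtf2, 138 for Rbbp4, 30.5 for Ezh2, 12.6 for Jarid2, 6.49 for Phf19, 5.25 for Ezh1, 4.92 for Suz12 and 4.38 for Aebp2. In N2B27 ungated Rbbp7 (616), Eed (307), Rbbp4 (156) and Mtf2 (128) again led, followed by Ezh2 (23.0), Phf19 (21.8), Jarid2 (18.3), Suz12 (9.0), Aebp2 (4.02) and Ezh1 (3.34). The cell ranges of genes next to each other in this order overlapped in both groups, so the order is that of the means alone. The sum of Mtf2 and Phf19 exceeded that of Jarid2 and Aebp2 per kilobase by 12.7 times in 2i small, 13.9 in 2i ungated, 2.76 in N2B27 small and 6.70 in N2B27 ungated. Without the spike-in-rich cell, a setting added after seeing the data, the ratio in 2i small was 6.52. With the length of the longest transcript the 4 ratios were 13.5 (6.96 without that cell), 15.1, 3.15 and 7.47.

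**Figure D4:**
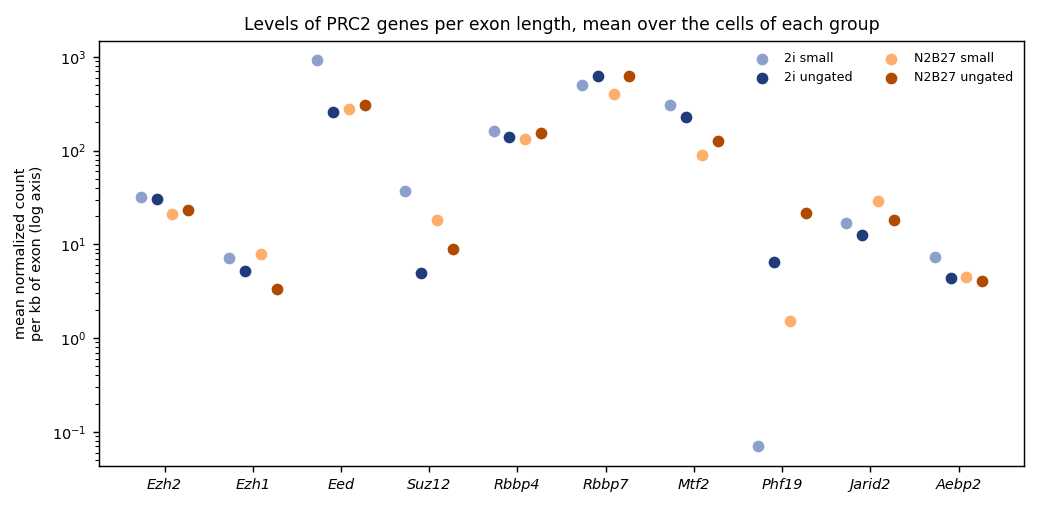
Mean normalized count per kilobase of exon (vertical log axis) of each member, 1 point per group. Rbbp7, Eed, Mtf2 and Rbbp4 lie above the other 6 members in all 4 groups, and Phf19 spans the widest range, from 0.0699 in 2i small to 21.8 in N2B27 ungated.

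Cells assigned to different phases differed for some members. In N2B27 small Ezh2 had a median of 0.565 in the 6 G1 cells (0 to 121) and 159 in the 11 S cells (1.63 to 399.5). The log2 ratio of the means was 2.72, beside a median of 0.36 over all genes. All 11 S cells held a count and 3 of 6 G1 cells did. Rbbp7 had a median of 423 in G1 (1.13 to 1149) and 1103 in S (284 to 4265), a log2 ratio of 1.45. Rbbp4 and Mtf2 gave 0.82 and 0.75. Eed, Jarid2 and Suz12 had lower means in S, at −0.42, −0.68 and −0.79. The median of Eed was lower in S too (1284 in G1 and 1047 in S). The medians of Jarid2 (1.38 in G1 and 86.8 in S) and Suz12 (33.1 and 56.2) were higher in S. The highest G1 cells of Jarid2 and Suz12 were at 1893 and 479. Ezh1 was at −4.02, resting on 3 G1 cells with a count. Aebp2 and Phf19 had means of 0.425 and 0 in G1, and no ratio is given for them.

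In 2i small the median of Ezh2 was 71.7 in the 6 G1 cells (1.48 to 1081) and 67.2 in the 5 S cells (0 to 413), so the phases overlapped. The spike-in-rich cell, at 15.1, is among these G1 cells, and without it the middle G1 cell is at 128. The S median is the value of the cell with the most genes, so the close medians rest on both cells that stood apart. In 2i ungated, 8 S against 14 G2/M cells, the members' log2 ratios ran from −0.55 for Mtf2 to 1.25 for Ezh1 with a median of 0.35, beside −0.02 over all genes, and Ezh2 stood at 0.18. Phase is called from the expression of cycle genes, so these cells are a range of scores and not sorted populations.

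**Figure D5:**
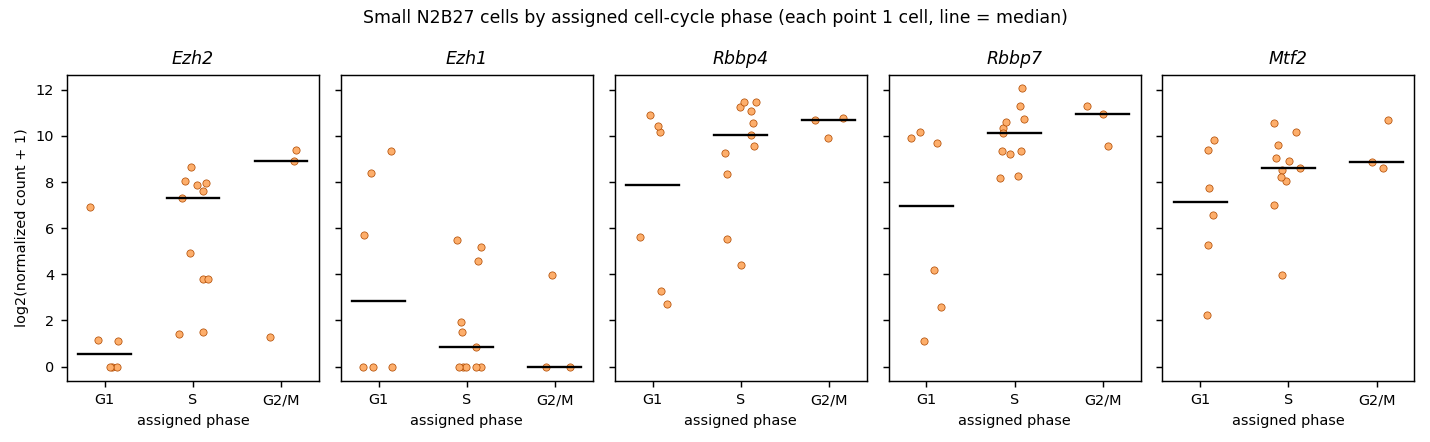
log2(normalized count + 1) of Ezh2, Ezh1, Rbbp4, Rbbp7 and Mtf2 in the N2B27 small cells, by assigned phase, with 1 point per cell and the median as a line. The median of Ezh2 is 0.565 normalized counts in G1 and 159 in S, and the lowest G1 cell of Rbbp7 is at 1.13 where the lowest S cell is at 284.

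Members varied among themselves with little common order. The 45 pairs of members had a mean within-group Spearman rho from −0.22 to 0.36 with a median of 0.001 over the 75 cells, and 5 pairs had the same sign in all 4 groups. A member against any other gene had a median of 0.02. The genes most like Ezh2 by mean within-group rho, among 6644 genes found in at least 50% of cells, were Zc3h14 (0.45), Pafah1b2 (0.45) and Cdc23 (0.41), a subunit of the anaphase-promoting complex. Those for Suz12 were Tcea1 (0.45), Gm9892 (0.43) and Map3k1 (0.42), and those for Jarid2 were Usp34 (0.49), Rex2 (0.48) and 2610005L07Rik (0.43). The points share plates and size factors, and the highest of so many values are described, not tested.

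Other genes of the pathway were taken from lists of partners and counterparts. Of 7 further PRC2 partners, Ezhip was not matched and 4 passed the filter. Elob, an elongin subunit that pairs with the PRC2.1 cofactor Epop, was the highest in small against ungated cells in N2B27 (log2 1.44), and Lcorl, a PRC2.1 partner, was the highest in 2i (2.44) and the lowest in N2B27 (−1.90). Elob followed in 2i (2.06, or 1.42 without the spike-in-rich cell). Epop was at −1.04 in N2B27 and 0.09 in 2i, and Eloc at 0.51 and 0.54. From 2i to N2B27, Eloc (0.50 in ungated and 0.47 in small cells) and Elob (0.27 and −0.34, the latter 0.30 without the spike-in-rich cell) were the higher, and Lcorl (−2.77 and −7.11) and Epop (−0.11 and −1.24) the lower. Lcorl had counts in 7 of 12, 10 of 22, 2 of 20 and 2 of 21 cells.

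PRC1, which ubiquitinates histone H2A and binds the PRC2 mark through its Cbx subunits, had 15 of 24 listed genes past the filter. In N2B27 the gate put 1 past the fold upward, Usp7 (2.08), and 1 downward, L3mbtl2 (−1.80), beside 11.8% and 17.1% of all genes, with Phc3 (1.00) and Pcgf3 (−0.99) next. In 2i 1 was past it upward, Pcgf3 (1.65), with Cbx2 (0.68) next, and 8 downward, with Bcor (−3.81) and Phc3 (−3.46) the lowest, where 16.3% and 27.8% of all genes were past it. The 8 became 6 without the spike-in-rich cell, where the share of all genes was not taken. With CPM or scran scaling they became 5, beside 24.6% and 22.8% of all genes. The PRC1 median there was −1.05 beside −0.36 over all genes, where PRC2 stood at 0.41. This direction turned with spike-in size factors, which put 5 up and 1 down (39.2% and 4.23% of all genes). These counts include both 2i small cells that stood apart. Without both, the median of all genes with these factors went from 0.79 to −1.25. Poscounts size factors put 3 up and 4 down (32.4% and 18.7%). In N2B27 spike-in factors put 0 up and 7 down (3.78% and 39.4% of all genes), and poscounts factors 5 up and 1 down (24.6% and 12.5%). Between the small groups 8 were higher in N2B27, led by Phc3 (4.03) and Bcor (3.59), and 2 lower, Pcgf3 (−3.87) and L3mbtl2 (−1.09), beside 22.3% and 19.2% of all genes. With spike-in size factors 0 were higher and 7 lower, beside 1.84% and 73.1% of all genes. Without both cells that stood apart, the median of all genes with these factors went from −1.56 to 0.47. PRC1 genes were not counted without them. Between the ungated groups 2 were higher, Pcgf5 (1.63) and Cbx2 (1.09), and 2 lower, Usp7 (−1.45) and Pcgf3 (−1.23), beside 7.49% and 9.92% of all genes. Poscounts size factors put 3 up and 0 down there (17.5% and 5.67%).

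Enzymes that remove the marks were also listed. Of the H3K27 demethylases, Kdm6b passed the filter and was at 1.94 in N2B27 small against ungated, 0.41 in 2i, −2.05 from 2i to N2B27 in ungated and −0.52 in small cells. Of the 8 genes of the H2A deubiquitinase, 3 passed. Bap1, its catalytic subunit, was at −0.81 and −2.87 in small against ungated cells of N2B27 and 2i, and at −0.15 and 1.91 from 2i to N2B27 in ungated and small cells. Its partner Asxl1 gave 6.30, 0.75, −3.28 and 2.28 in the same order and had counts in 26 of 75 cells. The means of Asxl1 were 26.7 in 2i small, 15.5 in 2i ungated, 133 in N2B27 small and 0.696 in N2B27 ungated. Its ratios of 6.30 and −3.28 rest on that low N2B27 ungated mean, from 4 cells with a count. Asxl1 passed the filter mostly through N2B27 small, so the filter itself favoured a higher value there. Asxl2 gave −0.24, 1.20 (0.26 without the spike-in-rich cell), −0.44 and −1.88 (−0.93 without that cell), in the order used for Bap1.

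Most of the listed developmental regulators known as Polycomb targets in ES cells had counts in few or no cells. Of 30 such genes, 12 had no count in any of the 75 cells, 4 were found in at least 10 cells, and 2 passed the filter. Of all 46078 gene rows, 8730 passed the filter. The other shares were not taken over all genes, so the list is not set apart from them. Pax6, a neural and eye regulator, had the most cells with a count, 44 of 75. Its log2 ratio from 2i to N2B27 was −0.15 in ungated and 1.39 in small cells, and that of small to ungated cells was −0.77 in 2i and 0.78 in N2B27.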

How the data were processed

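Libraries were made by Smart-seq2 from total RNA of single mouse ES cells and sequenced in pairs on 1 lane per medium. Per the labels and the study's methods, the authors trimmed reads with Trim Galore (0.4.4), aligned them to mm10 with GSNAP and counted them over Ensembl genes with HTSeq; the deposited values are raw counts, not normalized. Strand is not marked, and reads that 2 genes could claim were left out as ambiguous, 6.77% of all. Rows that name no gene took 27.6% of counts and ERCC spike-ins 3.85%. Exons of members share 174 to 796 bases with antisense genes at Ezh2, Eed, Suz12, Mtf2, Rbbp4 and Rbbp7.

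Symbols came from GENCODE M21, sequences from RefSeq. Limits on cells were set per plate at 3 median absolute deviations (scater 1.30.1). Cells that were low in counts or genes (log scale) or high in mitochondrial share were left out. No upper limit on counts or genes was set, and no doublet caller was run. Size factors were DESeq2 (1.42.0) median ratios over the 1227 genes with a count in every kept cell, and phases came from cyclone (scran 1.30.0). Ratios used a pseudocount of 1 and, as background, genes with a mean of at least 20. The count models that suit replicated counts, and adjusted p-values, were not used because each group is 1 sample. Copies were searched with BLAST 2.17.0+ (at least 95% identity over 100 bases). Reads carry no molecular identifiers, so intervals cover counting error only. All members were named. Of the lists the 2 highest and 2 lowest per comparison were named, the most detected of the targets (others that the rule takes are not reported here), and the 3 genes most like Ezh2, Suz12 and Jarid2, and other listed genes were named after their values were seen. The members and lists were chosen with earlier results of these data known. Alternatives covered cell limits, scaling, pooling, log means, pseudocount, gene filter, thinning, single cells and phase.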

Additional observations from a re-analysis of the deposited data

Results flagged for a closer look

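For 4 members the change from 2i to N2B27 had opposite signs in small and in ungated cells. The gates were not tested against each other in this, since each group is 1 sample. For Ezh1 the log2 change was 0.12 in small and −0.63 in ungated cells, a difference of 0.75. Without the spike-in-rich 2i small cell the small change was −0.0035, so the signs were then the same. For Eed the changes were −1.73 and 0.25, a difference of −1.99, and the small change was −0.08 without that cell. For Suz12 they were −1.0 and 0.85, a difference of −1.84, with −1.12 in small cells without that cell. For Rbbp4 they were −0.28 and 0.18, a difference of −0.45, with −0.40 without it.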

How the results depend on the processing

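Of 542 values of single members under other settings, 323 moved by less than 0.3 on the log2 scale, 213 moved further and 6 called values changed sign. Phf19 in small against ungated cells was lower and past the fold under every setting run in each medium. The members' median log2 ratio for N2B27 small against ungated (−0.13, 3 members past the fold) became 0.29 (5) with poscounts size factors, −0.88 (5) with spike-in size factors, −1.0 (6) with means of log2 values and −0.64 (5) in S-phase cells. The median of all genes, −0.12 at first, was 0.30, −0.82, −0.76 and 0.18 in the same order. Of all genes, 24.6% were past the fold upward and 12.5% downward with poscounts, and 3.78% and 39.4% with spike-in factors. For 2i small against ungated (0.41, 3) the members' median became 1.33 (8) with poscounts, 0.94 (5) with spike-in factors, −1.09 (6) with spike-in factors without both cells that stood apart, a setting added after seeing the data, 0.10 with no cell left out, −0.38 with means of log2 values, −0.0671 without the highest cell of each gene and −0.48 in S-phase cells. The median of all genes, −0.36 at first, was 0.26, 0.79, −1.25, −0.33, −1.36, −0.85 and −0.33 in the same order. Of all genes, 32.4% were past the fold upward and 18.7% downward with poscounts, and 39.2% and 4.23% with spike-in factors. Between ungated media (0.09, 1) the members' median became 0.54 (3) with poscounts and −0.29 (3) with means of log2 values, and 3 were past the fold in S-phase cells, 5 with no cell left out and 5 with fixed limits on cells. The median of all genes, −0.03 at first, was 0.40 with poscounts and −0.62 with means of log2 values. Of all genes, 17.5% were past the fold upward and 5.67% downward with poscounts. Between small media (−0.47, 3) the members' median became −1.83 (8) with spike-in factors, 0.29 with them without both cells, and −0.14 without the highest cell, with 5 past the fold under poscounts and 1 with pooled counts. The median of all genes, 0.09 at first, was −1.56 with spike-in factors, 0.47 with them without both cells and 0.28 without the highest cell. Of all genes, 1.84% were past the fold upward and 73.1% downward with spike-in factors, and 30.4% and 19.5% with poscounts. Under the other settings of this section the share of all genes past the fold was not taken. Counts of members there are not set apart from it. The values that changed sign were Ezh1 in the N2B27 gates (−0.49 with spike-in factors, −2.48 in S-phase cells), Eed in the 2i gates (−1.01) and between small media (0.42), both with spike-in factors without both cells, Suz12 in the 2i gates (−0.95 in S-phase cells) and Phf19 between small media (−0.02 with spike-in factors). The cause was not tested. No paired analysis was possible because each group is 1 sample and the labels number no replicates. With no replicates, values rest on counting precision and the spread of 12 to 22 cells.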
